A study of Mus musculus with 10 samples.

Results

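The 42 genes described here are interferon-stimulated genes, the antiviral genes that a cell switches on when an interferon binds its receptor. They were chosen by name, from a list of symbols matched to the Ensembl identifiers of the deposited tables through the GENCODE M21 annotation, and all 42 were found among the 45786 genes measured. By role they comprise 3 transcription factors, 4 RNA sensors, 15 antiviral effectors, 8 genes of the Isg15 pathway and of ubiquitin ligases and their partners, 5 GTPases and 7 other induced genes. They lie on 14 chromosomes.

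Type I interferons signal through the receptor Ifnar and the kinases Jak1 and Tyk2 to a complex that holds Stat2 and Irf9 and binds the interferon-stimulated response element (ISRE) in the promoters of these genes. Type II interferon acts on a second sequence, the gamma-activated site (GAS). In lung the program is best known as a defence against respiratory viruses, and it can also be started without infection when RNA or DNA of the cell itself reaches the sensors in the cytosol.

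The genes were measured by RNA sequencing in suspensions of all lung cells. The mice were of the inbred strain C57BL/6J. Irradiated mice had received 12.5 Gy of γ-radiation to the whole thorax, and age-matched control mice 0 Gy. The 5 times after exposure were 24 hours, 1 week, 4 weeks, 12 weeks and 32 weeks, and each time and treatment is represented by 1 library made from the pooled RNA of 3 mice, so that there are 5 irradiated and 5 control pools. The labels give no genetic modification, agent other than radiation, sex or age in weeks. With 1 pool per time and treatment, the spread between irradiated pools of one time was not measured; the test at each time set the irradiated pool against all 5 controls and took it to vary as they do.

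Deposited totals lay between 9983710 and 13509769 counts per pool. Levels are given as CPM, the counts of a gene scaled to a common library total, with trimmed-mean (TMM) factors, and comparisons between genes in FPKM, the authors' values per length. No marker of the lung cell types examined was at 0 in all 10 pools. Of the 42 genes, 41 passed the filter on low counts among 15625 genes tested. The exception was Mx2, an antiviral GTPase annotated as a polymorphic pseudogene, with control levels of 2.81, 0.649, 0.347, 0.509 and 2.22 CPM in order of time and irradiated levels of 2.32, 0.587, 1.61, 0.697 and 0.464 CPM.

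The promoters of these genes are shown because the ISRE is the sequence through which Stat2 and Irf9 act. RefSeq windows (build GRCm38.p6) from 250 bases before to 50 bases after the start of transcription were matched by symbol to 32 of the 42 genes, and both strands were searched. An ISRE match was the letters GAAA repeated with any 2 bases between the repeats, and a GAS match was TTCNNNGAA. Overlapping matches were counted, and the GAS and an ISRE match overlapped in Bst2 and in Ifitm3. An ISRE match lay in 19 of the 32 genes (59.4%), against 3.99% of the 27025 genes with a window and 3.44% of the 32851 windows. GAS matches lay in 8 of the 32 (25%), against 9.55% of the genes and 8.3% of the windows. The stretches below run 5′ to 3′ on the strand of each gene, with the ISRE matches in capitals; where a match lies on the other strand, the capitals show its reverse complement.
Ifit3 (chr19:34583373-34583446, + strand): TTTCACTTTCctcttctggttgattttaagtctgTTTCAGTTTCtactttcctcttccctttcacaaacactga
Ifit1 (chr19:34640774-34640843, + strand): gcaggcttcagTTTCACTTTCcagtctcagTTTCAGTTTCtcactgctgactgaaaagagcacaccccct
Isg15 (chr4:156200845-156200914, - strand): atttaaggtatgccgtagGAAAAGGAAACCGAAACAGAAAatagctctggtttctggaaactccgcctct
Oas1a (chr5:120907526-120907569, - strand): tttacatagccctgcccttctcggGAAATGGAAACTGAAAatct
Gbp2 (chr3:142620574-142620643, + strand): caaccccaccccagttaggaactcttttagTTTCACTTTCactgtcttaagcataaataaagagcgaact
Igtp (chr11:58199492-58199555, + strand): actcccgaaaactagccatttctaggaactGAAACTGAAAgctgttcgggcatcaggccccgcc
Stat2 (chr10:128270248-128270315, + strand): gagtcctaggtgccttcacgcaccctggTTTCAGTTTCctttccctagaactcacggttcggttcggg
In Isg15 3 overlapping matches formed 1 run that began 78 bases before the start site, and in Ifit3 a pair of matches began 156 and 122 bases before it. All 5 GTPases had an ISRE match. The windows of Oasl2, Irf7 and Lgals3bp held no match to either motif, and no window was matched to Rtp4. A match describes these letters and was not tested as a binding site.

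**Figure D1:**
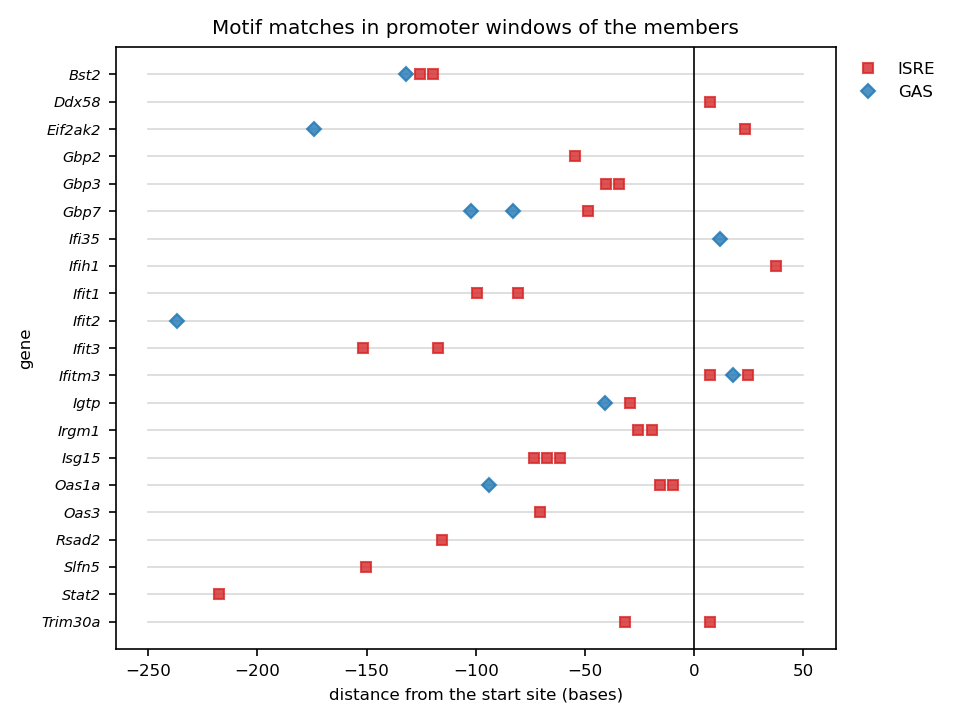
Positions of ISRE (red squares) and GAS (blue diamonds) matches in the promoter windows of the genes that held 1 or more. The horizontal axis is the distance from the start site in bases, each grey line is the window of a gene, and each mark is the middle of a match. Most ISRE marks lie before the start site, and those of Ddx58, Eif2ak2, Ifih1 and Ifitm3, with 1 of Trim30a, lie after it.

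Unirradiated lung expressed nearly all of these genes. Ifitm3, a membrane protein that blocks virus entry, had the highest control level per length at 385 ± 16.2 FPKM (SD, n = 5 pools). Ifi27l2a, a small mitochondrial membrane protein, followed at 310.2 ± 66.3 FPKM, and Bst2, the tetherin that holds budding virus at the cell surface, at 80.3 ± 9.92 FPKM. Ifitm3 and Ifi27l2a are neighbours in this order whose difference is close to the spread of Ifi27l2a, and both lay far above Bst2. At the low end stood Mx2 at 0.540 ± 0.262, Mx1 at 0.424 ± 0.234 and Oas2 at 0.361 ± 0.240 FPKM, 3 genes whose levels did not differ beyond their spread. The most even gene between controls was Ifitm3, whose CPM had a coefficient of variation of 2.34%, and the least even was Rsad2 (viperin, an enzyme that makes a chain-terminating nucleotide) at 61.8%. The median over the 41 genes was 14.6%. No gene of the 41 changed with time in the controls by edgeR with Benjamini-Hochberg adjustment (the smallest p was 0.0468 before and 0.84 after adjustment, for Cmpk2; 0.0064% of all genes were called higher and 0% lower, and 3.8% were higher at an unadjusted p under 0.05).

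Irradiation was followed at 24 hours by a broad elevation of these genes. Of the 41, 20 rose and 0 fell by edgeR's quasi-likelihood test (adjusted p under 0.05), against 0.602% of all 15625 genes called higher and 0.454% called lower. At an unadjusted p under 0.05, 37 of the 41 were higher, against 5.61% of all genes. The irradiated pool lay above its matched control for all 41 (49.6% of all genes), by more than 2-fold for 24 (3.34%), and above each of the 5 controls for 40 (22.1%), the exception being Trim25. It was the highest of the 10 pools for 38 of the 41 (12.1%), the other 3 being Usp18, Trim25 and Dtx3l. The median fold over the matched control was 2.34 over the 41 genes and 0.997 over all genes tested. In bulk RNA, more cells of a type that expresses these genes and more RNA per cell cannot be told apart.

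**Figure D2:**
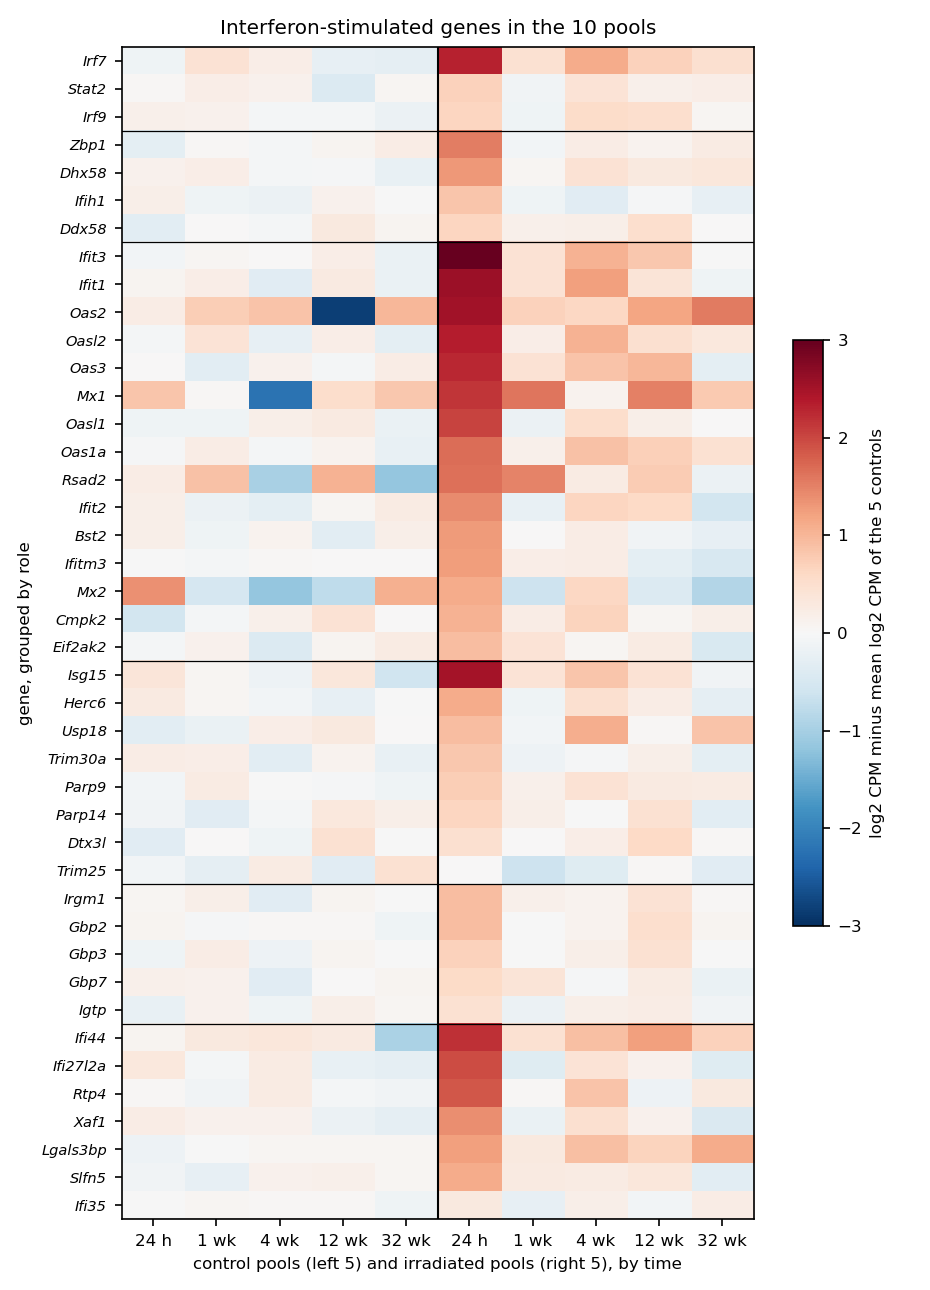
Level of the 42 genes, in rows grouped by role, in the 10 pools, in columns (5 controls on the left, 5 irradiated pools on the right, in order of time). Colour is log2 CPM minus the mean log2 CPM of the 5 controls, from -3 (blue) to 3 (red). The column of the 24-hour irradiated pool is red in almost every row, and a paler band of red stands at 4 weeks and, for part of the genes, at 12 weeks.

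Among the transcription factors, Irf7, the regulator that amplifies interferon production, rose. Irf7 had 36.4, 53.7, 45.5, 33.6 and 33.0 CPM in the controls of 24 hours and 1, 4, 12 and 32 weeks, and 198, 54.3, 85.7, 64.5 and 55.6 CPM in the irradiated pools in the same order. All 5 irradiated pools lay above all 5 controls, the 1-week and 32-week pools by little. At 24 hours the log2 difference from the controls was 2.29 ± 0.23 (SE; adjusted p = 0.00179). Irf9, the DNA-binding subunit of the complex, had 79.1, 78.0, 68.9, 68.6 and 63.6 CPM in the controls and 112, 65.7, 104, 101 and 73.8 CPM in the irradiated pools. Its 24-hour pool was 1.42-fold the matched control, with a log2 difference of 0.65 ± 0.17 that did not pass (adjusted p = 0.154). Stat2 had 45.2, 50.4, 47.9, 33.1 and 45.6 CPM in the controls and 71.0, 40.7, 58.5, 48.8 and 50.2 CPM after irradiation, with 0.68 ± 0.22 at 24 hours (adjusted p = 0.258). For Irf9 and Stat2 the 24-hour and 4-week irradiated pools exceeded all controls, as did the 12-week pool of Irf9, and the 1-week pools did not. Irf9 overlaps Rnf31 on the same strand, so part of its reads may come from that gene.

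Of the 4 RNA sensors 2 rose at 24 hours. Zbp1, which binds Z-form nucleic acid, was 3.50-fold its matched control (26.3 CPM in the control and 92.5 CPM after irradiation; log2 1.52 ± 0.20, adjusted p = 0.00781). Dhx58 (LGP2, a regulator of the other sensors) was 2.24-fold (log2 1.29 ± 0.21, adjusted p = 0.0212). The classical sensors Ddx58 (RIG-I) and Ifih1 (MDA5) did not pass. Ddx58 had 51.8, 64.4, 61.3, 79.1 and 67.5 CPM in the controls and 100.3, 71.8, 72.5, 91.0 and 64.3 CPM after irradiation. Ifih1 had 29.4, 23.4, 23.0, 28.4 and 25.4 CPM in the controls, and its irradiated pools had 45.7, 23.5, 20.3, 25.3 and 21.9 CPM. The 24-hour irradiated pool was the highest for both, and the later pools of Ifih1 lay within or below the range of the controls. The log2 differences at 24 hours were 0.63 ± 0.21 (adjusted p = 0.264) and 0.82 ± 0.22 (adjusted p = 0.145).

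The antiviral effectors showed the highest median fold of the roles at 24 hours, 3.16 over the 14 tested, and 9 of the 14 rose. Ifit3, of the Ifit family that binds viral RNA and its translation machinery, had 22.3, 24.5, 23.8, 26.9 and 20.3 CPM in the controls and 195, 31.8, 48.6, 41.5 and 23.2 CPM in the irradiated pools. The 24-hour pool was 7.23-fold the highest control, and the pools of 1, 4 and 12 weeks stood above all controls as well. Its log2 difference at 24 hours was 3.05 ± 0.17 (adjusted p = 7.2e-05), the smallest adjusted p of any of the 15625 genes. Ifit1 had 14.6, 16.0, 10.8, 16.8 and 12.0 CPM in the controls and 82.5, 18.7, 32.7, 18.1 and 12.7 CPM after irradiation, and rose by log2 2.55 ± 0.24 at 24 hours (adjusted p = 0.0012). Here the irradiated pools of 24 hours and of 1, 4 and 12 weeks lay above all controls and that of 32 weeks within them. Ifit2, the third gene of the cluster on chromosome 19, was 2.38-fold its matched control at 24 hours (log2 1.41 ± 0.27, adjusted p = 0.0407). Ifit3 has a near-identical neighbour, Ifit3b, so the split of reads between the 2 is uncertain; Ifit3b rose as well (log2 2.99 ± 0.23, adjusted p = 0.000307).

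The Oas and Oasl genes encode oligoadenylate synthetases, which activate RNase L on double-stranded RNA, and their relatives. Oasl2 had 36.0, 50.3, 31.7, 43.1 and 30.6 CPM in the controls and 194, 43.4, 77.5, 52.5 and 46.8 CPM after irradiation. The 24-hour and 4-week irradiated pools stood clear of the controls, while the 1-week and 32-week pools lay within their range. Its log2 difference at 24 hours was 2.34 ± 0.23 (adjusted p = 0.00168). Oas3, the largest synthetase, had 10.8, 8.51, 11.8, 10.2 and 12.6 CPM in the controls and 52.0, 14.5, 19.3, 21.4 and 8.74 CPM after irradiation (24 hours, log2 2.27 ± 0.24, adjusted p = 0.00265). Its irradiated pools were above all controls at every time but 32 weeks, where the pool was 0.698-fold its matched control. Oas1a rose by 1.68 ± 0.19 (adjusted p = 0.00286) and its close copy Oas1g by 2.75 ± 0.28 (adjusted p = 0.00186), with the division of reads between them uncertain. Oasl1 rose by 2.04 ± 0.28 (adjusted p = 0.00968).

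Ifitm3 and Bst2 were both abundant before irradiation and both rose at 24 hours. Ifitm3 had 366, 352, 374, 369 and 369 CPM in the controls and 868, 418, 430.3, 298 and 263 CPM after irradiation. The controls were nearly equal; the irradiated pools of 24 hours, 1 week and 4 weeks lay above all of them, and those of 12 and 32 weeks below all of them. Its log2 difference was 1.25 ± 0.14 at 24 hours (adjusted p = 0.00402) and -0.48 ± 0.16 at 32 weeks (adjusted p = 0.179, not passed). Bst2 was 2.15-fold its matched control at 24 hours (log2 1.26 ± 0.19, adjusted p = 0.0168).

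Low or uneven effectors did not pass. Mx1, an antiviral GTPase of which C57BL/6 mice carry a defective allele, had 2.64, 1.46, 0.173, 2.12 and 2.59 CPM in the controls and 6.81, 4.61, 1.53, 4.34 and 2.55 CPM after irradiation (24 hours, log2 1.92 ± 0.77, adjusted p = 0.355). Oas2 had 1.90, 2.76, 3.03, 0.0849 and 3.33 CPM in the controls, and its irradiated pools had 9.85, 2.68, 2.53, 3.80 and 5.03 CPM. Both are near the floor of these libraries, so the folds over the 4-week control of Mx1 and the 12-week control of Oas2 rest on almost no reads. Rsad2 had 46.7, 73.5, 20.03, 81.9 and 17.6 CPM in the controls and 125, 113, 47.3, 67.8 and 35.4 CPM after irradiation. Its controls of 1 and 12 weeks were several times those of 4 and 32 weeks, the 24-hour irradiated pool was nevertheless the highest, and the test gave 1.38 ± 0.77 (adjusted p = 0.566). Cmpk2, a nucleotide kinase next to Rsad2 on chromosome 12, and Eif2ak2 (PKR, which halts translation on double-stranded RNA) were 3.02-fold and 1.98-fold their matched controls, with adjusted p of 0.186 and 0.199.

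In the Isg15 pathway and ubiquitin ligase group 1 of 8 genes passed at 24 hours. That gene was Isg15, the ubiquitin-like protein that is joined to other proteins, with 13.9, 11.4, 9.71, 13.8 and 7.13 CPM in the controls and 62.0, 14.4, 19.4, 14.7 and 10.1 CPM after irradiation. Its 24-hour pool was 4.44-fold the highest control, the pools of 1, 4 and 12 weeks were also above all controls, and the log2 difference at 24 hours was 2.46 ± 0.30 (adjusted p = 0.00495). Usp18, the protease that removes Isg15 and restrains the receptor, had 37.1, 40.7, 53.6, 57.2 and 47.4 CPM in the controls and 88.8, 43.9, 98.7, 47.6 and 84.6 CPM after irradiation. It stood above all controls at 24 hours, 4 weeks and 32 weeks and among them at 1 and 12 weeks, with 4 weeks the highest (24 hours, log2 0.91 ± 0.23, adjusted p = 0.121). Herc6, the mouse Isg15 ligase, was 1.78-fold its matched control at 24 hours (adjusted p = 0.0542). Parp9 and Dtx3l, partners in one ubiquitin ligase complex, were 1.77-fold and 1.75-fold, Parp14 was 1.69-fold and Trim30a 1.497-fold, none passing. Parp9 and Dtx3l overlap head to head on opposite strands and the library chemistry named in the labels does not mark strand, so reads of the overlap cannot be assigned. Trim25, a ubiquitin ligase that acts on RIG-I, had 62.9, 55.4, 79.5, 52.5 and 92.4 CPM in the controls and 67.6, 43.2, 51.9, 69.0 and 52.8 CPM after irradiation, the 24-hour pool lying inside the controls (log2 -0.02 ± 0.29, adjusted p = 0.992). The sign of this difference was the opposite in limma on log2(FPKM + 1).

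The 5 GTPases act on membranes around intracellular pathogens and had folds between 1.35 and 1.81 over the matched control at 24 hours. Gbp2, a guanylate-binding protein, rose: it had 65.2, 60.9, 63.3, 63.7 and 56.9 CPM in the controls and 117, 61.9, 66.2, 87.2 and 65.9 CPM after irradiation (24 hours, log2 0.92 ± 0.16, adjusted p = 0.029). Its irradiated pools of 24 hours and 12 weeks stood clear of a narrow control range. Igtp, an immunity-related GTPase, had 43.3, 55.5, 46.7, 57.7 and 53.0 CPM in the controls and 70.2, 45.4, 57.9, 59.9 and 47.0 CPM after irradiation, and did not pass (log2 0.45 ± 0.20, adjusted p = 0.412); its gene body overlaps Irgm2 on the same strand. Irgm1 was 1.81-fold its matched control (adjusted p = 0.0657), Gbp3 1.79-fold and Gbp7 1.35-fold. At 12 weeks the irradiated pool lay above all 5 controls for all 5 GTPases (21.9% of all genes), for Igtp by little. None of the 5 passed the test there.

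Of the 7 other induced genes 6 rose at 24 hours. Rtp4, a chaperone of membrane receptors, had 27.6, 25.1, 32.2, 26.2 and 25.4 CPM in the controls and 99.3, 27.9, 49.3, 24.6 and 33.6 CPM after irradiation (24 hours, log2 1.86 ± 0.18, adjusted p = 0.00179). The pools of 24 hours and 4 weeks stood above all controls by a wide margin, the 32-week pool by a narrow one. Ifi27l2a had 165, 127, 157, 113 and 109.5 CPM in the controls and 511, 102, 176, 145 and 103 CPM after irradiation, a log2 difference of 1.93 ± 0.21 at 24 hours (adjusted p = 0.0027). At 1 and at 32 weeks it lay below all 5 controls. Ifi44 had 3.96, 4.62, 4.77, 4.58 and 1.85 CPM in the controls and 17.8, 5.20, 7.21, 8.99 and 6.19 CPM after irradiation; all irradiated pools exceeded all controls, and its 24-hour difference was 2.16 ± 0.42 (adjusted p = 0.0426). Xaf1, which favours apoptosis, rose by 1.39 ± 0.22 (adjusted p = 0.0201) and Slfn5, of the schlafen family, by 1.12 ± 0.20 (adjusted p = 0.0334). Ifi35, which was already at 43.3 ± 4.51 FPKM in the controls, was 1.22-fold its matched control and did not pass (adjusted p = 0.555).

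**Figure D3:**
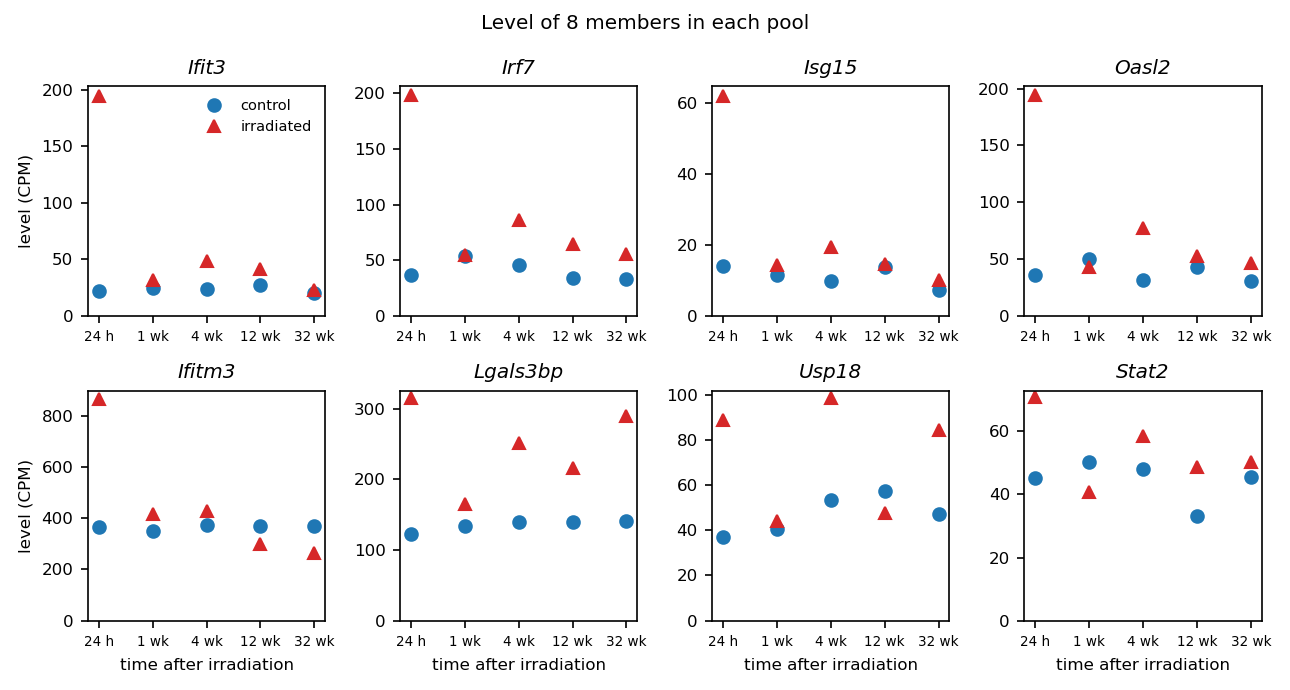
Level in CPM (vertical axis, from 0) of 8 of the genes in the control (blue circles) and irradiated (red triangles) pools at each time (horizontal axis); each mark is 1 pool of 3 mice, with no error bar because each time has 1 pool. Ifit3, Irf7, Isg15, Oasl2 and Ifitm3 are highest at 24 hours; Lgals3bp is above its controls at all 5 times, and Usp18 is highest at 4 weeks.

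The calls of 10 of the 20 genes held under all 13 alternative settings, namely Irf7, Zbp1, Ifit1, Ifit3, Oasl2, Oas1a, Ifitm3, Rtp4, Ifi27l2a and Lgals3bp. With age as a covariate (log2 days) 11 genes were called, with FPKM in limma 13, and without the 1-week control 14. Leaving out that control ended the calls of Bst2 (adjusted p = 0.055), Gbp2 (0.0772), Xaf1 (0.055), Ifit2 (0.1), Ifi44 (0.0975) and Slfn5 (0.0743).

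At 1 week 0 of the 41 genes were called in either direction by edgeR (0.0192% of all genes called higher, 0% lower), and 0 had an unadjusted p under 0.05 (5.04% of all genes were higher at that level). The irradiated pool was above its matched control for 21 genes (52.6% of all genes) and above all 5 controls for 13 (22.6%), with a median fold of 1.00 over the 41 genes. The largest folds were those of Mx1 (2.94, at low counts), Oas3 (1.69) and Rsad2 (1.53). Trim30a (0.776), Trim25 (0.780) and Xaf1 (0.797) were among the lowest.

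At 4 weeks the irradiated pool again stood above its matched control for 38 of the 41 genes, against 53.2% of all genes, with a median fold of 1.34 against 1.02. It exceeded all 5 controls for 27 of the 41, against 19.1% of all genes. None passed edgeR's test after adjustment (0.0128% of all genes were called higher and 0.0448% lower), while 10 had an unadjusted p under 0.05 and were higher (4.15% of all genes). DESeq2 called 5 of the 41 higher at this time, among 95 genes called in all.

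Effectors led again at 4 weeks, with a median fold of 1.76 over the 14 tested. Ifit1 was 2.99-fold its matched control (10.8 CPM in the control, 32.7 CPM after irradiation; log2 difference from the 5 controls 1.22 ± 0.28, adjusted p = 0.396), Oasl2 2.44-fold (31.7 and 77.5 CPM; 1.01 ± 0.26, 0.439) and Ifit3 2.04-fold (1.04 ± 0.21, 0.231). Irf7 was 1.88-fold (1.08 ± 0.26, 0.402), Oas1a 1.90-fold (0.87 ± 0.20, 0.396) and Usp18 1.84-fold (1.06 ± 0.23, 0.277). All 7 of the other induced genes lay above all controls at 4 weeks (19.1% of all genes). Against that, 1 of the 4 sensors and 2 of the 5 GTPases did so, and Ifih1 (0.883-fold), Oas2 (0.843-fold) and Trim25 (0.653-fold) were below their matched controls.

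Likeness between the 24-hour and 4-week patterns was described from the matched folds, which use different pools on both sides. Across the 41 genes Spearman's rho between the folds at 24 hours and those at 4 weeks was 0.56, against 0.12 across the 15625 genes tested. Against 1, 12 and 32 weeks it was 0.4, 0.17 and 0.41 across the 41 genes, and 0.3, 0.02 and 0.06 across all genes. Genes of one program are not independent points, and each fold rests on 2 pools, so no p is given.

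**Figure D4:**
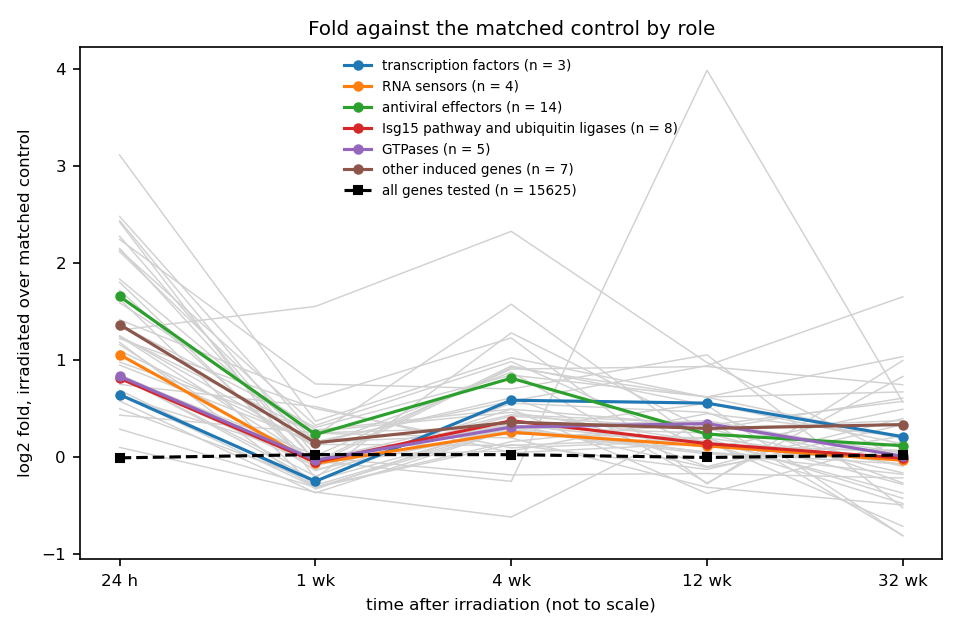
Log2 fold of the irradiated pool over the control pool of the same time (vertical axis) at the 5 times (horizontal axis, not to scale). Each grey line is 1 of the 41 genes, coloured lines are medians by role and the black dashed line is the median of all genes tested. The coloured medians lie between 0.65 and 1.66 at 24 hours, between -0.25 and 0.24 at 1 week, and above 0 again at 4 weeks; the grey line that reaches 3.99 at 12 weeks is Oas2, whose control had almost no reads.

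At 12 weeks 33 of the 41 genes were above their matched control (50% of all genes) and 24 above all 5 controls (21.9%), with a median fold of 1.22. No gene was called (0% of all genes in either direction), and 11 had an unadjusted p under 0.05 and were higher (4.95% of all genes). Ifit3 was 1.54-fold its matched control (log2 0.82 ± 0.22, adjusted p = 0.258), Oas3 2.08-fold (0.99 ± 0.29, 0.29), Oas1a 1.54-fold (0.72 ± 0.20, 0.278), Irf9 1.47-fold (0.50 ± 0.18, 0.384) and Gbp2 1.37-fold (0.49 ± 0.17, 0.361). Cmpk2 (0.773-fold), Ifitm3 (0.808-fold) and Rsad2 (0.828-fold) had the smallest folds.

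At 32 weeks 24 of the 41 genes lay above their matched control (51.8% of all genes) and 17 below it, with a median fold of 1.04. Against the 5 controls the split moved with the scaling: 20 of the 41 were higher with TMM, 15 with total counts and 31 in limma on log2(FPKM + 1). Above all 5 controls lay 12 of the 41 (25.5% of all genes) and below all of them 8 (23.3%). One gene passed, Lgals3bp (0.576% of all genes were called higher and 0.25% lower). At an unadjusted p under 0.05, 2 were higher (9.43% of all genes) and 1, Ifitm3, was lower (6.92%). Ifit2 (0.571-fold), Trim25 (0.572-fold) and Eif2ak2 (0.612-fold) had the smallest folds, and Ifi44 (3.15-fold) and Lgals3bp (2.06-fold) the largest. The Ifi44 fold rests on a 32-week control of 1.85 CPM, the lowest of its 5 controls. Usp18 was 1.78-fold its matched control (log2 0.84 ± 0.23, adjusted p = 0.108).

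Lgals3bp, a secreted glycoprotein that binds galectins, was higher in the irradiated pool at every time and was called at 24 hours and at 32 weeks. It had 122, 134, 139, 139.6 and 141 CPM in the controls and 315, 166, 251.2, 215 and 290.1 CPM in the irradiated pools. The controls spanned a narrow range and every irradiated pool lay above it, the 32-week pool being close to the 24-hour one. The log2 difference was 1.22 ± 0.15 at 24 hours (adjusted p = 0.00534), 0.29 ± 0.16 at 1 week (0.62), 0.90 ± 0.15 at 4 weeks (0.128), 0.67 ± 0.16 at 12 weeks (0.21) and 1.10 ± 0.15 at 32 weeks (0.0172). The 32-week call was lost without the 1-week control (adjusted p = 0.0623), in limma on log2(FPKM + 0.1) (0.0677) and with age as a covariate (0.1).

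Over the 5 matched pairs together, 7 genes were higher in all 5 pairs (6.75% of all genes), namely Irf7, Ifit1, Ifit3, Isg15, Gbp2, Ifi44 and Lgals3bp. For Irf7, Ifi44 and Lgals3bp all 5 irradiated pools lay above all 5 controls (1.17% of all genes). In the edgeR fit with time as a block none of the 41 passed (0% of all genes in either direction), and 17 had an unadjusted p under 0.05 and were higher (6.62% of all genes). Lgals3bp had a log2 difference of 0.84 ± 0.15 (adjusted p = 0.15), Irf7 of 1.00 ± 0.29 (0.283), Ifi44 of 1.12 ± 0.32 (0.278), Oas1a of 0.78 ± 0.22 (0.277), Rsad2 of 0.80 ± 0.23 (0.278) and Mx1 of 1.25 ± 0.40 (0.324). DESeq2 called 4 of the 41 in this comparison, among 258 genes called in all.

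Whether the effect itself differed between times was tested in 2 ways. The change of the effect per doubling of time was below 0 at an unadjusted p under 0.05 for 14 of the 41 genes (3.61% of all genes) and passed after adjustment for none (0% of all genes). Ifitm3 showed the smallest p, with a slope of -0.21 ± 0.04 log2 units per doubling (adjusted p = 0.679), followed by Slfn5 (-0.19 ± 0.04), Bst2 (-0.16 ± 0.04), Ifit3 (-0.32 ± 0.09), Oas3 (-0.28 ± 0.08) and Parp14 (-0.14 ± 0.04). In a contrast added after the data were seen, the effect was larger at 24 hours than at the later 4 times for 41 of 41 genes (47.8% of all genes), with an unadjusted p under 0.05 for 18 (2.69% of all genes). Ifit3 differed by -2.57 ± 0.39 log2 units (later times minus 24 hours; adjusted p = 0.6), and no gene of the 41 passed in edgeR. DESeq2 called 2 of the 41 lower for the change with time, among 60 genes called in all.

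The interferons themselves were at or near 0. Of 20 type I and type III interferon genes, 15 had no count in any of the 10 pools, Ifnb1 among them, and their summed counts lay between 0 and 5 per pool, with 5 in the 24-hour irradiated pool. A count of 0 allows up to 3 fragments, or 0.16 to 0.353 CPM in these libraries, for counting error alone. Ifng, the type II interferon, had 0.908, 1.30, 2.34, 3.73 and 2.13 CPM in the controls and 2.08, 1.93, 1.07, 2.25 and 1.01 CPM after irradiation, with a log2 difference of 0.00 ± 0.73 at 24 hours (adjusted p = 1) and a wide error at this level.

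Receptors and kinases were tested at 24 hours as well. None of the 6 interferon receptor genes passed, against 0.602% of all genes called higher and 0.454% lower. Ifnar1 was 0.957-fold its matched control (log2 -0.11 ± 0.19, adjusted p = 0.897). None of 10 kinases and transcription factors outside the 42 passed either, and their median fold was 0.97. At these shares over all genes, a list of 6 or 10 genes would seldom hold a call. Irf1, a transcription factor induced by interferons, was 1.20-fold its matched control (adjusted p = 0.999), and Tmem173 (STING, the adaptor of cytosolic DNA sensing) 0.945-fold (adjusted p = 0.785). Failing the test does not show that these genes were unchanged.

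Further interferon-induced genes outside the 42 moved in part. Of 44 tested, 29 lay above all 5 controls at 24 hours (22.1% of all genes) and 5 rose (0.602% of all genes), with a median fold of 1.46. Beside Ifit3b and Oas1g these were Phf11d (log2 1.71 ± 0.26, adjusted p = 0.0164), Iigp1, an immunity-related GTPase (log2 1.42 ± 0.25, adjusted p = 0.0314), and Slfn1 (log2 1.20 ± 0.24, adjusted p = 0.0465). Ifi204, a DNA sensor, rose by 1.80 ± 0.22 (adjusted p = 0.00534) and was the one gene of 13 nucleic acid sensing genes tested to pass. Over all 106 pathway genes listed, 84 were tested, 6 rose (0.602% of all genes) and 0 fell (0.454%) at 24 hours.

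Several sums of cell type markers also lay outside their controls at 24 hours, some above and some below. The summed level of 9 monocyte and interstitial macrophage markers was 2177 CPM in the 24-hour irradiated pool against 997 to 1319 CPM in the 5 controls. Of the 9, 7 lay above all controls (22.1% of all genes). C1qa, C1qb and C1qc made up most of that sum, at 367, 628.5 and 409 CPM. Cx3cr1, at 59.8 CPM, lay below all controls, and Ccr2 was 0.734-fold its matched control. At 4 and 12 weeks the sum of the 9 markers was 1565 and 1546 CPM, and at 1 and 32 weeks 1381 and 1181 CPM. Neutrophil markers summed to 1085 CPM at 24 hours against 569 to 825 CPM in the controls, with S100a8 and S100a9 at 289 and 420 CPM. Of these 8 markers 4 lay above all controls (22.1% of all genes) and the rest within them. Camp, at low counts, was 0.325-fold its matched control. Markers of plasmacytoid dendritic cells, the main producers of type I interferon, summed to 171 CPM at 24 hours and 193 CPM at 1 week. The controls had 296 to 394 CPM. Ly6d alone held 86.2 CPM of the 24-hour sum, against 189 CPM in its matched control. At 24 hours Ly6d, Siglech, Ccr9, Klk1 and Spib lay below all of their controls. Cox6a2, Pacsin1 and Runx2 (1.08-fold its matched control) lay within theirs. The median fold of these 8 markers over the matched control at 24 hours was 0.547, against 0.997 over all genes tested. B cell markers summed to 463 CPM at 24 hours against 952 to 1493 CPM, and T cell markers to 178 CPM against 372 to 680 CPM. NK cell markers, at 379 CPM, lay within their controls (173 to 414 CPM). Alveolar type 2 markers summed to 53710 CPM at 24 hours, with 5 of 5 above all controls (22.1% of all genes). Alveolar macrophage markers summed to 16110 CPM against 7076 to 14630 CPM, with 4 of 8 above. Chil3 alone held 14270 CPM of that sum, and Fabp4 (0.773-fold), Car4 (0.775-fold) and Krt79 (0.899-fold) were below their matched controls. At 12 and 32 weeks the alveolar type 2 markers summed to 6788 and 7985 CPM against 22380 to 39740 CPM in the controls. The part of these shifts in the levels of the 41 genes was not tested.

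**Figure D5:**
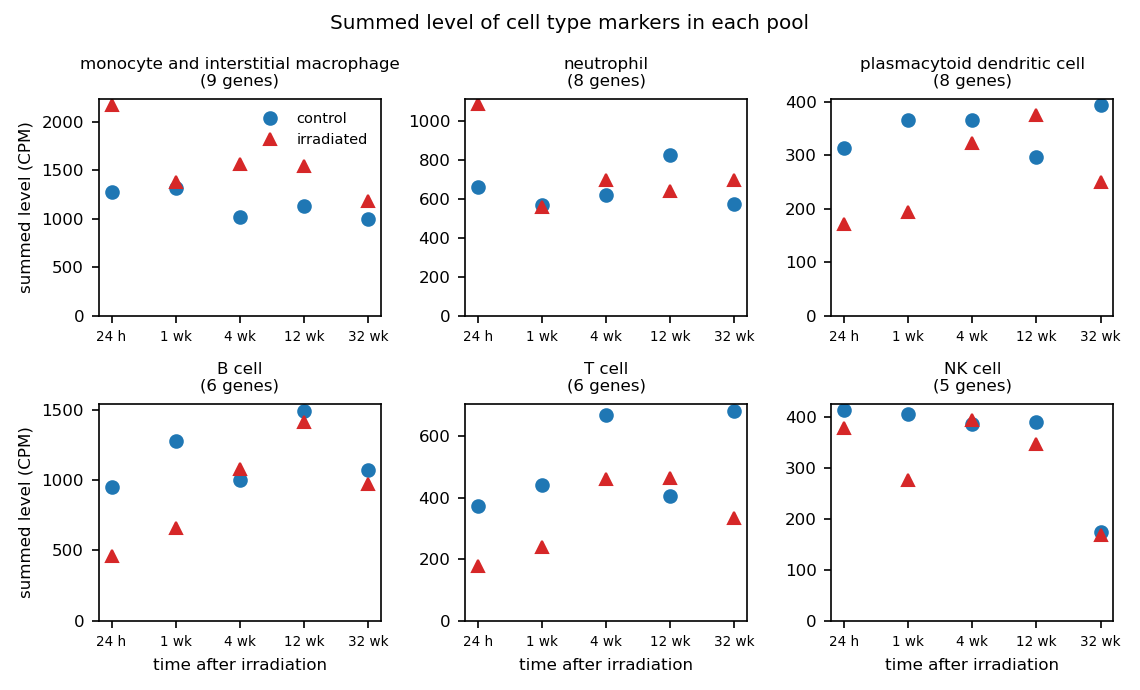
Summed level in CPM (vertical axis, from 0) of the markers of 6 immune cell types in the control (blue circles) and irradiated (red triangles) pools at each time (horizontal axis); each mark is 1 pool. The monocyte and interstitial macrophage sum is highest in the 24-hour irradiated pool at 2177 CPM, while the B cell, T cell and plasmacytoid dendritic cell sums of that pool lie below all controls.

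An ISRE match lay in 9 of 16 genes that passed at 24 hours and in 10 of 16 that did not, a difference that was not tested. GAS matches lay in 4 of 16 and 4 of 16. By role, 8 of 12 effectors, 2 of 2 sensors, 5 of 5 GTPases, 2 of 5 genes of the Isg15 and ubiquitin group, 1 of 3 transcription factors and 1 of 5 other induced genes held an ISRE match. The windows were matched to 32 genes and cover 250 bases before the start site, so a site farther away would not be seen.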

How the data were processed

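Per the labels' protocols, RNA of 3 mice per pool was prepared with Qiagen RNeasy PLUS and sequenced after Clontech ultralow amplification and NexteraXT tagging. The submitters' processing notes list mouse build GRCm38.p4 and 4 programs, which are STAR 2.4.2a, Trimmomatic 0.32, Cuffdiff and Cufflinks 2.0.2; what each did, and the gene annotation, they leave unstated. The deposited units are expected counts, which estimate the fragments of each gene, and the authors' FPKM. Low counts lay at multiples of a step of 0.576 to 1.38 per library, so the counts had been scaled before deposit; 78.3% to 81.5% of values were whole multiples within a tolerance of 0.05.

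Counts were rounded and tested with edgeR 4.0.16 in R 4.3.3 (TMM factors 0.933 to 1.09, minimum count 10, quasi-likelihood, Benjamini-Hochberg over 15625 genes, called at 0.05). Each time set 1 irradiated pool against the 5 controls (4 residual degrees of freedom); the 5 comparisons share those controls, and the p-values measure spread between control pools of different age. The fit over 5 times had time as a block, and trends used log2 days. A matched fold is the ratio of CPM of the pools of one time with a prior count of 2, without a test. Alternatives used total count scaling, size factors, no filter and DESeq2 1.42.0. Further ones were limma 3.58.1 on log2(FPKM + 1) and log2(FPKM + 0.1), with mean FPKM of at least 0.5. Each control pool was left out in turn in the single-time and control-only fits. In the fits over the times both pools of a time were left out together. The irradiated pool of a single-time fit was never left out. Scripts were tested on simulated data. There the 24-hour comparison called 6% of 200 genes given a true 2-fold change and 94.5% of those given a 4-fold change. A gene that did not pass at a single time may therefore still have changed by 2-fold. GENCODE M21 named 45137 of 45786 genes.

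The members and lists were chosen with earlier results of these data known. An ISRE was searched as the letters GAAA repeated 2 bases apart. Genes were named from the 6 with the smallest p and the 3 with the largest and smallest matched fold per comparison. Not all of these are printed for every comparison. Fixed examples of each role were added, and others were chosen after their values were seen. Of the pathway list, Mnda could not be matched, and 1 gene is not reported here. Paralogues and overlapping genes may share reads, since the chemistry does not mark strand, and PCR copies are counted.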

Additional observations from a re-analysis of the deposited data

Results flagged for a closer look

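In 82 sets of 5 pools (41 genes, irradiated or control), 13 had 1 pool set apart from the others, meaning that its gap to the nearest pool divided by the whole range was above Dixon's critical value of 0.71. Chance alone marks about 1 set in 20 where sets are independent and each comes from 1 population. These sets share pools, and the pools of a set differ in time. The number of flags therefore cannot be judged against that rate. In 12 of the 13 it was the irradiated pool of 24 hours that stood above the other irradiated pools. The ratio of gap to range was 0.875 for Zbp1 and 0.852 for Ifit3, the highest of the 13. It was 0.832 for Oasl1, 0.821 for Isg15, 0.821 for Ifi27l2a and 0.801 for Ifih1. It was 0.785 for Bst2, 0.782 for Irf7, 0.777 for Dhx58 and 0.774 for Oasl2. Ifitm3 had 0.723 and Ifit1 0.714. Zbp1 had 92.5, 30.1, 37.5, 34.5 and 37.9 CPM in the irradiated pools in order of time and Ifih1 45.7, 23.5, 20.3, 25.3 and 21.9 CPM. These pools differ in time as well as in animals, and the cause was not tested.

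The other case was a control. Ifi44 had 3.96, 4.62, 4.77, 4.58 and 1.85 CPM in the controls, and the 32-week control lay below the other 4 (ratio 0.723). Its matched fold at 32 weeks was 3.15.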

How the results depend on the processing

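The direction of the 20 calls at 24 hours and of Lgals3bp at 32 weeks was kept under the 13 alternatives. The alternatives were fitted to all genes, but the calls named outside the 42 were not followed through them. At 24 hours 20 genes were called; limma on log2(FPKM + 1) and on log2(FPKM + 0.1) called 13 each, and log2 days as a covariate 11. Leaving out 1 control pool gave 14 to 19 at 24 hours and 0 to 1 at 32 weeks, where 1 gene was called. At 32 weeks DESeq2 called 2 of the 41, among 857 genes called in all. There limma on log2(FPKM + 0.1) called 0, among 51, and the covariate 0, among 11. DESeq2 also called 4 over the 5 times (among 258 in all), 5 at 4 weeks (95) and 1 at 12 weeks (238). It called 2 lower for the change with time (60). By edgeR 0 were called in each of these 4 comparisons. Total count scaling shifted the median of all genes by -0.13 (log2) at 24 hours and -0.10 at 1 week, and limma on log2(FPKM + 1) by 0.11, 0.16, 0.17 and 0.18 at 24 hours, 4, 12 and 32 weeks; at 24 hours 40 and 41 of the 41 genes were higher under these, against 40 with TMM. Pairing by time is the design: in the fit without the time block (no replicate block) 0 genes were called over the 5 times. Precision is limited by 1 pool per time and treatment, and for Mx1, Mx2 and Oas2 by depth.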

Other observations

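Genes that restrain or feed the interferon response were described at 24 hours beside the 41. Of 10 negative regulators none passed edgeR's test (0.602% of all genes were called higher and 0.454% lower). Above all 5 controls lay 3 of them (22.1% of all genes). Trex1, an exonuclease that clears cytosolic DNA, was 1.46-fold its matched control (log2 0.57 ± 0.18, adjusted p = 0.213), and Adar, which edits double-stranded RNA, 1.59-fold (log2 0.50 ± 0.17, adjusted p = 0.275). Among the sensing genes, Cgas, the cytosolic DNA sensor upstream of STING, was low, with 5.61, 5.59, 5.20, 4.92 and 5.28 CPM in the controls and 2.48, 2.52, 4.68, 4.03 and 2.94 CPM after irradiation. Its 24-hour irradiated pool was 0.458-fold the matched control and did not pass (adjusted p = 0.331). Irf8, a factor of dendritic cells and monocytes, was 0.532-fold at 24 hours (adjusted p = 0.297), and the chemokine gene Cxcl10 4.29-fold (adjusted p = 0.187). Trex1, Adar, Cgas, Irf8 and Cxcl10 were named after their values had been seen.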
